A study of Homo sapiens with 6 samples.

Results

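GDF15 is a secreted stress cytokine of the transforming growth factor beta superfamily, known as NSAID-activated gene 1 because non-steroidal anti-inflammatory drugs induce it in many epithelial cancer lines. It was examined here with its receptor GFRAL, with EGR1, KLF4, SP1 and SP3, transcription factors known to act at its promoter, and with NDRG1, another stress-responsive gene. The set holds 7 of the 18417 genes measured. Each member was taken from the transcript clusters annotated with its symbol alone, and each had 1 such cluster.

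Celecoxib cells were of the AGS line, an established human gastric carcinoma line, and received 20 µM celecoxib, an inhibitor of cyclooxygenase-2, for 24 h. Control cells were AGS cells labelled as given no treatment. Both were seeded in 6-well plates and grown for 48 h beforehand in medium with serum and antibiotics, and product from 250 ng of total RNA was hybridised to Affymetrix HuGene-1_0-st arrays, 3 per group. The drug came in DMSO, and the labels do not say whether controls were given this solvent. The arrays are labelled biological replicates, but the protocol mentions that samples were pooled once RNA integrity had been checked, so the p-values reflect variation between these arrays that could be technical. In RNA of whole cultures, fewer cells of a type and less RNA per cell cannot be told apart.

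GDF15 is made as a precursor, cut by proprotein convertases such as furin and secreted as a dimer. Its receptor GFRAL signals with the kinase RET and is known from the hindbrain, where GDF15 reduces food intake. EGR1, KLF4, SP1 and SP3 are zinc finger proteins that bind GC-rich DNA. EGR1 is an immediate early gene that has been described as a mediator of the induction of GDF15 by such drugs in colorectal cancer cells.

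The GC-rich letters that SP and KLF proteins are known for can be read in the start region of GDF15, which is shown with that of EGR1 because these are the cytokine and the regulator most often tied to its induction by such drugs. Each line gives the 250 bases before the annotated transcription start, on the plus strand of GRCh38.p14, from RefSeq. The GDF15 stretch is chr19:18385908-18386157 and the EGR1 stretch is chr5:138465229-138465478. Capitals mark the GC box, GGGCGG on either strand, in GDF15, and the CArG box, the site of serum response factor, in EGR1.
GDF15: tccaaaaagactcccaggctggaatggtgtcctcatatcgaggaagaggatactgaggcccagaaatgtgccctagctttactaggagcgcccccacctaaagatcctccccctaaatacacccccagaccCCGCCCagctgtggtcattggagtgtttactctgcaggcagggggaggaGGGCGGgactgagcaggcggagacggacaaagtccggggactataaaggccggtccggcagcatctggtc
EGR1: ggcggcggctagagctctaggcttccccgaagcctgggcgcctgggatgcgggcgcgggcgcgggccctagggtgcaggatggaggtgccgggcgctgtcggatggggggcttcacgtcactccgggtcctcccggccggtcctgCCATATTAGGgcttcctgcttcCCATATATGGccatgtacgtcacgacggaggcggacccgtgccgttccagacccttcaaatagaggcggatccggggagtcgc

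The GDF15 stretch held 2 GC boxes, whose first letters lie 119 and 70 bases before the start. It also held a CACCC box (CACCC on either strand) at 131 bases, a CCAAT box at 103 bases and the letters TATAAA at 29 bases, none of them overlapping. Of 35116 stretches of the same length, 42.6% held at least 1 GC box and 24.3% held 2 or more, while 54.7% held CACCC, 32.0% held CCAAT and 10.7% held TATAAA. The EGR1 stretch held 2 CArG boxes, at 105 and 83 bases, and 0.0313% of all stretches held 2 or more. It held 1 match of GCGNGGGCG, the letters of the EGR site, at 198 bases, which 8.41% of all stretches have. The GDF15 stretch held 0 matches of these letters, which says only that they are not in this window. KLF4 had 4 GC boxes and 1 such EGR site, which overlapped one of them. The annotated starts of SP1 (2 stretches) held 4 and 8 GC boxes, and those of SP3 (3 stretches) held 2, 2 and 1. The SP1 stretch with 8 GC boxes also held 1 EGR site, at 22 bases, which overlapped the GC box at 18 bases. In that stretch the GC boxes at 150 and 146 bases overlapped each other. Such matches are descriptions of the letters, not bound sites.

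Array medians on the log2 scale were 6.75, 6.78 and 6.79 with celecoxib and 6.81, 6.82 and 6.80 in controls. They were thus slightly lower on every celecoxib array than on any control array. Pearson's r between arrays, across transcript clusters, lay between 0.985 and 0.996. Celecoxib 1 stood apart from the other arrays: on the first principal component (44.9% of the variance) it lay at -23.9, against -2.70 to 16.4 for the other 5 arrays. Its median over 195 small nuclear and nucleolar RNA genes was 7.49, with 7.21 and 7.17 on the other celecoxib arrays and 7.11, 6.98 and 7.13 on the control arrays. Every celecoxib array thus lay above every control array in this level. A fit that includes it as a covariate cannot fully separate it from treatment. Epithelial markers lay above the median of all clusters (6.785) in 5 of 5 genes, and the mean of the list was 10.80 to 10.90 on celecoxib arrays and 10.90 to 10.95 on control arrays. Of the markers of other cell types, 1 of 5 fibroblast genes, 0 of 3 leukocyte genes and 0 of 3 endothelial genes lay above that median. Without scanner files, no level above background could be assigned, and the labels name no batch.

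**Figure D1:**
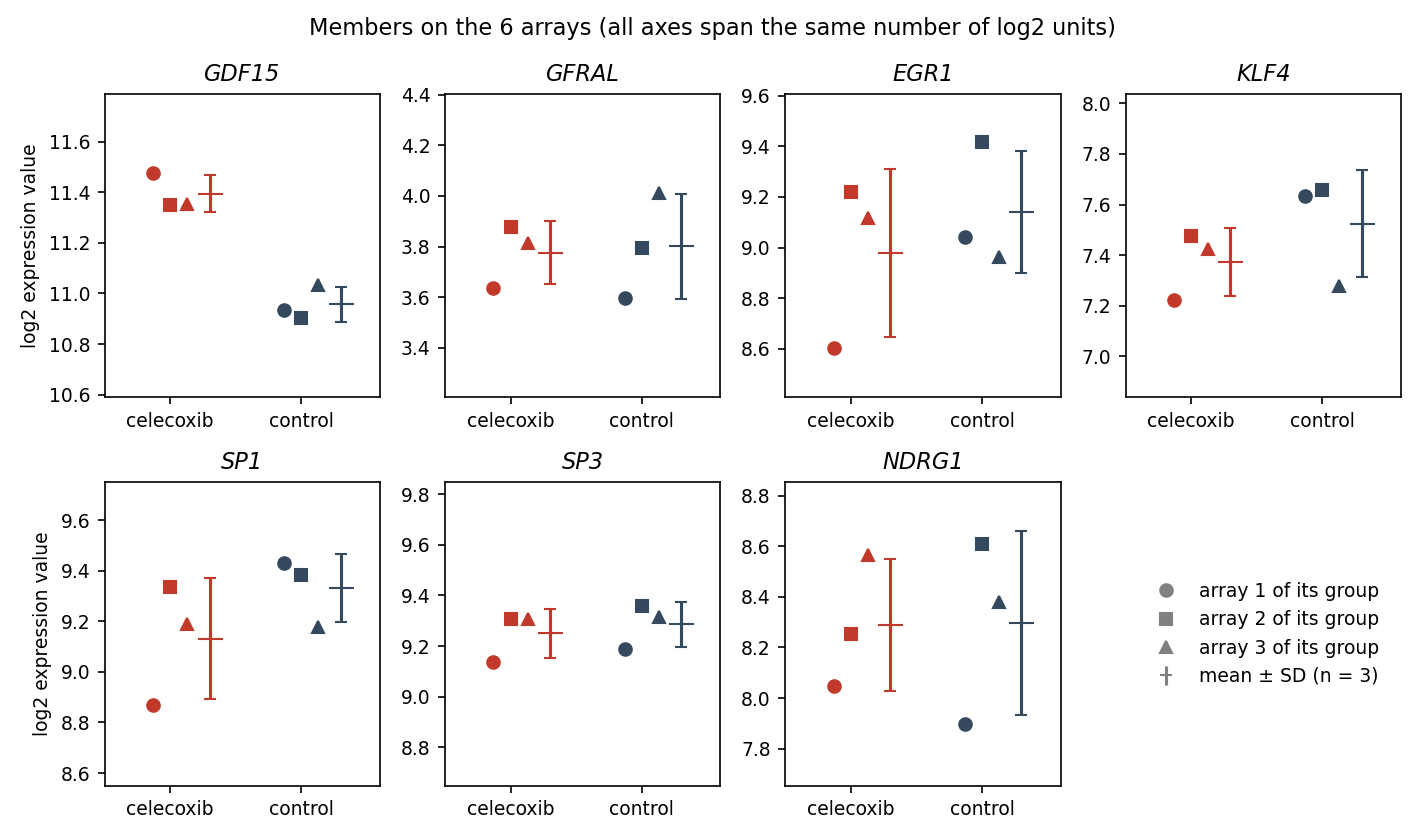
Log2 expression values of the 7 genes on each array, celecoxib (left) and control (right), with each group's mean and SD (n = 3). GDF15 separates the groups, from 11.35 upward with celecoxib and up to 11.03 in controls, and the other 6 genes overlap.

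GDF15 was higher on all 3 celecoxib arrays than on all 3 control arrays. Its log2 values were 11.48, 11.35 and 11.35 with celecoxib, against 10.94, 10.90 and 11.03 in controls. The groups did not overlap, and the gap between the lowest celecoxib value and the highest control value, 0.32, was wider than the range within celecoxib (0.13) or within controls (0.13).

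The means were 11.39 ± 0.07 with celecoxib and 10.96 ± 0.07 in controls (SD, n = 3 each), a log2 difference of 0.44 ± 0.07 (SE). That is 1.35-fold, with a 95% interval from 1.20 to 1.52-fold. The difference did not pass an adjusted p of 0.05 over 18417 genes (limma adjusted p = 0.0907, unadjusted p = 0.000338). An exact two-sided permutation test gave p = 0.1, the smallest that 3 against 3 arrays allow. GDF15 had the 112th largest log2 difference in the upward direction, and 67 genes had a smaller p.

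Of the 7 genes, 0 passed the adjusted threshold, where 0.141% of all genes did (0.0760% higher and 0.0652% lower). At an unadjusted limma p under 0.05 there was 1 member, GDF15, where 11.3% of all genes met it. GDF15 was also the 1 member whose groups did not overlap in the upward direction, as in 11.1% of all genes, and 0 members did so downward, as in 7.95% of genes. A count of 1 in 7 is near these shares and sets the group apart from other genes in neither measure.

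The call on GDF15 turned on the settings, while its size moved little. It passed among genes brighter than the median cluster (limma adjusted p = 0.0426), with an intensity trend in the variance (0.0326), with that trend and a robust fit (0.0342) and with array weights (0.0157). The weighted fit leaned on 1 control array, as control 1 had a weight of 5.85 and the other arrays 0.37 to 1.21. Over all 18 alternatives the adjusted p ranged from 0.0157 to 0.457 and the log2 difference from 0.34 to 0.47, positive in 18 of 18. Without celecoxib 1 the difference was 0.39 ± 0.07 (SE, limma adjusted p = 0.209), and the 2 remaining celecoxib arrays still lay above the 3 controls. With the level of these small RNAs as a covariate it was 0.34 (adjusted p = 0.351), in a fit that cannot fully separate this level from treatment.

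**Figure D2:**
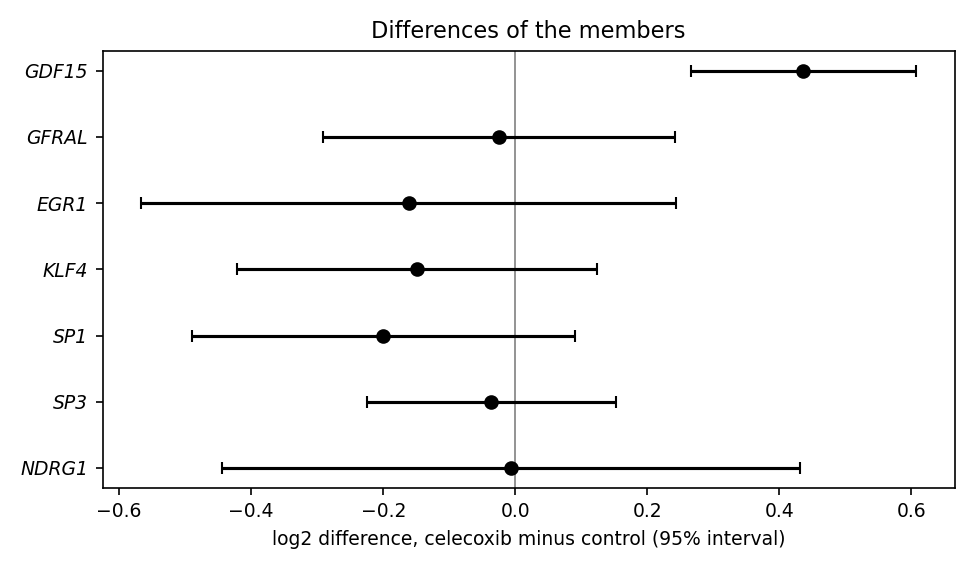
Log2 difference between celecoxib and control means for the 7 genes, with 95% intervals from the limma fit (n = 3 per group). The interval of GDF15, 0.27 to 0.61, lies above 0, and those of the other 6 genes include 0.

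GFRAL, the receptor, had low values on every array. They were 3.64, 3.88 and 3.81 with celecoxib and 3.60, 3.79 and 4.01 in controls. All 6 lay below the median of all clusters, and the groups overlapped. The log2 difference was -0.02 ± 0.12 (SE, 3 arrays each, limma adjusted p = 0.946), with an interval from -0.29 to 0.24.

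RET and GDNF were not analysed here. Of the 7 measured genes among GDNF family receptors and ligands, 3 had higher and 4 lower means with celecoxib, 0 passed the adjusted threshold, and the median log2 difference was -0.05, beside -0.01 over all genes. The sign of this median depended on single arrays: it was -0.11 without celecoxib 1, 0.0359 without celecoxib 2 and 0.0138 without control 3, and -0.15 with the small RNA covariate. ARTN, the ligand artemin, had the smallest p, at 7.08, 7.03 and 7.12 with celecoxib and 7.31, 7.27 and 7.17 in controls (log2 difference -0.18 ± 0.07, SE, limma adjusted p = 0.415). GFRA2, a receptor for neurturin, stood at -0.22 ± 0.22, and NRTN, neurturin itself, at -0.06 ± 0.08. GFRA2 rested on control 3 and was 0.0540 without it, and NRTN was -0.11 without celecoxib 1, where its groups did not overlap.

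EGR1 had a lower mean with celecoxib, a difference within the spread between arrays. Its log2 values were 8.60, 9.22 and 9.12 with celecoxib and 9.04, 9.42 and 8.96 in controls. The groups overlapped, and celecoxib 1 was the lowest of the 6 arrays. The log2 difference was -0.16 ± 0.18 (SE, 3 arrays each, limma adjusted p = 0.745), and the 95% interval, from -0.57 to 0.24, allowed a fold of up to 1.18 over controls. Without celecoxib 1 the difference was 0.03 ± 0.14, and without control 2, the highest array, it was -0.0233.

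The other measured EGR genes and the NAB proteins, which bind EGR1 and restrain it, had higher means in 4 of 4 cases. Of all genes, 47.9% were higher, and 0 of the 4 passed the threshold. Their median log2 difference was 0.08, beside -0.01 over all genes. NAB2 stood at 7.79, 7.93 and 7.86 with celecoxib and 7.76, 7.78 and 7.77 in controls. Its groups did not overlap, as upward in 11.1% of all genes, and its difference was 0.09 ± 0.07 (SE, limma adjusted p = 0.631). NAB1 stood at 0.19 ± 0.10 and EGR4 at 0.06 ± 0.09. Without celecoxib 1, NAB1 was at 0.27 with groups that did not overlap, EGR4 at 0.0086, and 3 of the 4 genes had higher means. With small RNA level in the fit 2 of 4 did, as EGR4 turned to -0.0346 and EGR3, named after its values were seen, to -0.15. EGR2 was not analysed here.

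SRF, the serum response factor, known to activate EGR1, had lower values on all celecoxib arrays. They were 8.13, 8.63 and 8.45 with celecoxib and 8.75, 8.98 and 8.68 in controls, with no overlap. The log2 difference of -0.40 ± 0.13 did not pass (SE, limma adjusted p = 0.357), and it was -0.26 ± 0.11 without celecoxib 1, the lowest array, and -0.09 once small RNA level was a covariate. Of the 5 measured genes of SRF and its partners, 2 had higher and 3 lower means, among them ELK1 at -0.11 ± 0.08 and ELK3 at -0.08 ± 0.09, partners that dock on SRF. Without celecoxib 1 these were -0.0388 and -0.0272, and the covariate turned them positive (0.0159 and 0.0572), with 4 higher and 1 lower means in the list.

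KLF4, a factor of differentiating gut epithelium, had values of 7.22, 7.48 and 7.42 with celecoxib and 7.63, 7.66 and 7.28 in controls. The groups overlapped through control 3, which lay below celecoxib 2 and 3. Celecoxib minus control gave -0.15 ± 0.12 on the log2 scale (SE, 3 arrays each, limma adjusted p = 0.641), and the interval from -0.42 to 0.12 allowed a fold of up to 1.09. Without control 3 it was -0.27, and without celecoxib 1 it was -0.07 ± 0.12.

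SP1, the broadly expressed activator at GC boxes, had values of 8.87, 9.33 and 9.19 with celecoxib and 9.43, 9.38 and 9.18 in controls. Celecoxib 1 was again the lowest array and control 3 lay within the celecoxib range. The log2 difference was -0.20 ± 0.13 (SE, 3 arrays each, limma adjusted p = 0.559), with an upper bound of 1.06-fold, and -0.07 ± 0.10 without celecoxib 1.

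SP3, which binds the same boxes and can activate or repress, varied least of the 7 genes, over 0.22 log2 units. Its values were 9.14, 9.31 and 9.31 with celecoxib and 9.19, 9.36 and 9.31 in controls, so the groups overlapped nearly fully. Their means differed by -0.04 ± 0.08 on the log2 scale (SE, 3 arrays each, limma adjusted p = 0.880), with an interval from -0.22 to 0.15.

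All 4 transcription factors had their lowest value on celecoxib 1, the array with the highest small RNA level, where 22.5% of all genes had theirs. With that level as a covariate their log2 differences became 0.29 for EGR1, 0.05 for KLF4, 0.06 for SP1 and 0.09 for SP3, with adjusted p between 0.461 and 0.921 by limma. Since this level was higher on every celecoxib array than on any control array, the fit cannot fully separate it from treatment. The part of the small RNA level in these differences was not tested.

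The wider SP and KLF family, of which 22 genes were measured beside the members, was evenly split. There were 11 higher and 11 lower means, 0 passed the adjusted threshold, and the median log2 difference was -0.0012, beside -0.01 over all genes. At an unadjusted limma p under 0.05 there were 1 higher and 2 lower genes, where 6.87% and 4.44% of all genes lay in these classes. Without celecoxib 1 there were 14 higher and 8 lower means, and with the small RNA covariate 15 and 7.

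KLF7 had values of 8.54, 8.55 and 8.66 with celecoxib and 8.86, 9.03 and 8.78 in controls (log2 difference -0.31 ± 0.08, SE, limma adjusted p = 0.280). KLF6, an injury-induced factor, had 8.61, 8.80 and 8.89 with celecoxib and 9.06, 9.07 and 9.02 in controls (-0.28 ± 0.09, adjusted p = 0.322). KLF10, a gene induced early by transforming growth factor beta, went the other way, with 9.54, 9.39 and 9.41 with celecoxib and 9.20, 9.08 and 9.29 in controls (0.26 ± 0.08, adjusted p = 0.338). In none of these 3 genes did the groups overlap, and without celecoxib 1 the differences were -0.29, -0.20 and 0.21. With the small RNA covariate they were -0.20, -0.13 and 0.12. They were picked for their small p. Of all 22 genes, 1 was higher and 3 were lower without overlap, where 11.1% and 7.95% of all genes were.

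**Figure D3:**
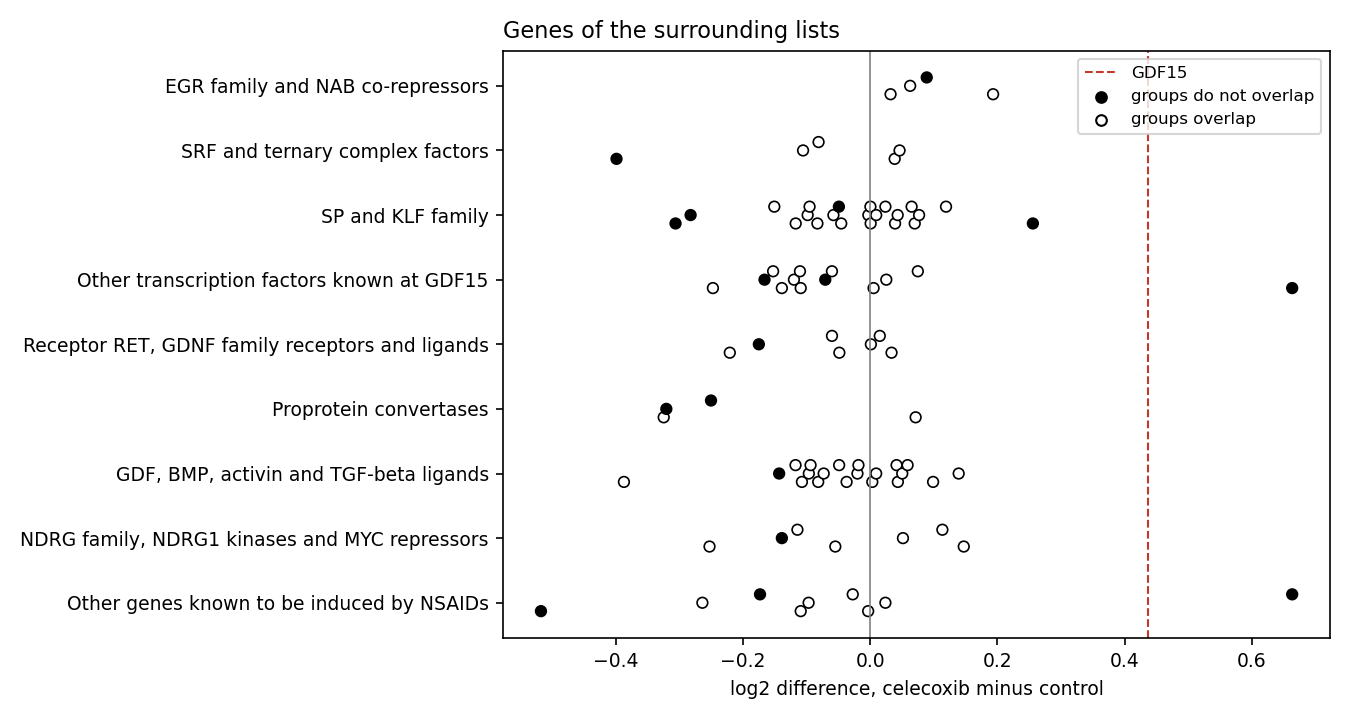
Log2 difference between celecoxib and control means for the measured genes of 9 lists around GDF15. Filled points mark genes whose groups do not overlap, and the dashed line marks GDF15 at 0.44, which DDIT3 at 0.66 (in 2 lists) exceeds.

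Other transcription factors known to act on GDF15 had 4 higher and 9 lower means among 13 measured genes, where 52.1% of all genes were lower, with 0 past the threshold and a median log2 difference of -0.11. Without celecoxib 1 the split was 5 and 8 (median -0.0641), and the small RNA covariate reversed it to 9 and 4 (median 0.0634). DDIT3, also called CHOP, a factor of endoplasmic reticulum stress, was the gene with the smallest p. It had values of 8.23, 7.85 and 7.94 with celecoxib and 7.21, 7.29 and 7.53 in controls, with no overlap. The log2 difference was 0.66 ± 0.12 (SE, limma adjusted p = 0.110), or 1.58-fold. It was 0.55 ± 0.11 without celecoxib 1 and 0.44 with the small RNA covariate (limma adjusted p = 0.393).

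ATF4, the activator upstream of DDIT3 in the integrated stress response, stood at -0.07 ± 0.07, and its celecoxib values (9.94, 9.92 and 9.87) lay just below its control values (9.94, 9.99 and 10.01). ATF3, a further stress factor, stood at -0.11 ± 0.11, and its groups overlapped through celecoxib 1. Without that array ATF3 was at -0.23 with no overlap, and with the small RNA covariate at -0.35. ATF4 and ATF3 are named after their values were seen. HIF1A, the hypoxia factor, had 11.56, 11.61 and 11.61 with celecoxib and 11.83, 11.72 and 11.73 in controls, without overlap (-0.17 ± 0.07, limma adjusted p = 0.421). It was at -0.148 without celecoxib 1 and at -0.146 with the covariate. NR2F1, a nuclear receptor known to act with SP1 at GDF15, stood at -0.14 ± 0.08, but at -0.0641 without celecoxib 1 and at 0.0158 with the covariate.

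The proprotein convertases had lower means in 3 of 4 measured genes, where 52.1% of all genes were lower. FURIN had 7.97, 8.41 and 8.30 with celecoxib and 8.58, 8.60 and 8.47 in controls, without overlap (log2 difference -0.32 ± 0.11, SE, limma adjusted p = 0.370). PCSK5 stood at -0.25 ± 0.09 without overlap and PCSK6 at -0.32 ± 0.13 with overlap.

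These 3 had an unadjusted limma p under 0.05 where 4.44% of all genes were lower at that level, and 0 passed the adjusted threshold. Without celecoxib 1, the lowest array for all 3, 1 of the 4 genes (FURIN) was lower at an unadjusted p under 0.05, where 4.54% of all genes were, and the differences of FURIN, PCSK5 and PCSK6 were -0.19, -0.19 and -0.21. Once small RNA level was a covariate they were -0.07, -0.12 and -0.06. PCSK7, named after its values were seen, stood at 0.07 ± 0.09, and at 0.15 without celecoxib 1, with no overlap.

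NDRG1 encodes a cytoplasmic protein induced by hypoxia, differentiation and stress and studied as a suppressor of metastasis. Its log2 values were 8.05, 8.25 and 8.57 with celecoxib and 7.90, 8.61 and 8.38 in controls. The groups overlapped, and the lowest and the highest of the 6 arrays were controls. The means differed by -0.01 ± 0.19 on the log2 scale (SE, 3 arrays each, limma adjusted p = 0.993), and the interval from -0.44 to 0.43 allowed a fold of up to 1.35 over controls.

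Its relatives, its kinases and MYC and MYCN, which repress it, numbered 7 measured genes, with 3 higher and 4 lower means and 0 past the threshold. Their median log2 difference was -0.05, and it turned to 0.0153 without celecoxib 1, 0.0516 among genes brighter than the median cluster and 0.0748 with the small RNA covariate. NDRG4 had the smallest p (-0.14 ± 0.07, SE, limma adjusted p = 0.502, no overlap), NDRG2 stood at 0.11 ± 0.08 and MYCN at -0.11 ± 0.08.

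The genes whose pattern was nearest to that of GDF15 were sought among the 10343 other genes brighter than the median cluster, by the root mean square difference between log2 values after each gene's mean over the 6 arrays was taken away. The nearest were MANBA, a lysosomal mannosidase (0.03), CILK1, a kinase of ciliogenesis (0.04), NMUR2, a receptor for neuromedin U (0.05), F5, coagulation factor V (0.05), and TBC1D19, a protein with a domain of Rab regulators (0.05). MANBA had 8.69, 8.57 and 8.53 with celecoxib and 8.21, 8.17 and 8.27 in controls. Log2 differences of these 5 genes lay between 0.38 for MANBA and 0.48 for F5, since nearness in pattern includes nearness in size. They were chosen for this likeness over 6 arrays, so the values are a description.

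**Figure D4:**
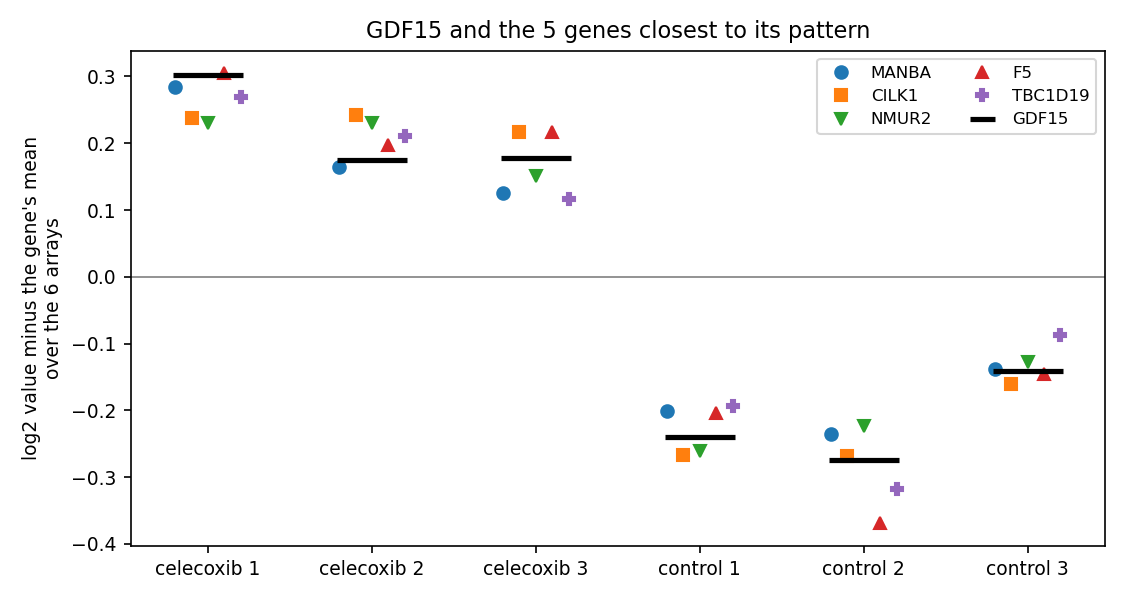
Log2 values minus each gene's mean over the 6 arrays, for GDF15 (black bars) and the 5 genes nearest to it in pattern. All 6 genes lie above 0 on the 3 celecoxib arrays and below 0 on the 3 control arrays.

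**Figure D5:**
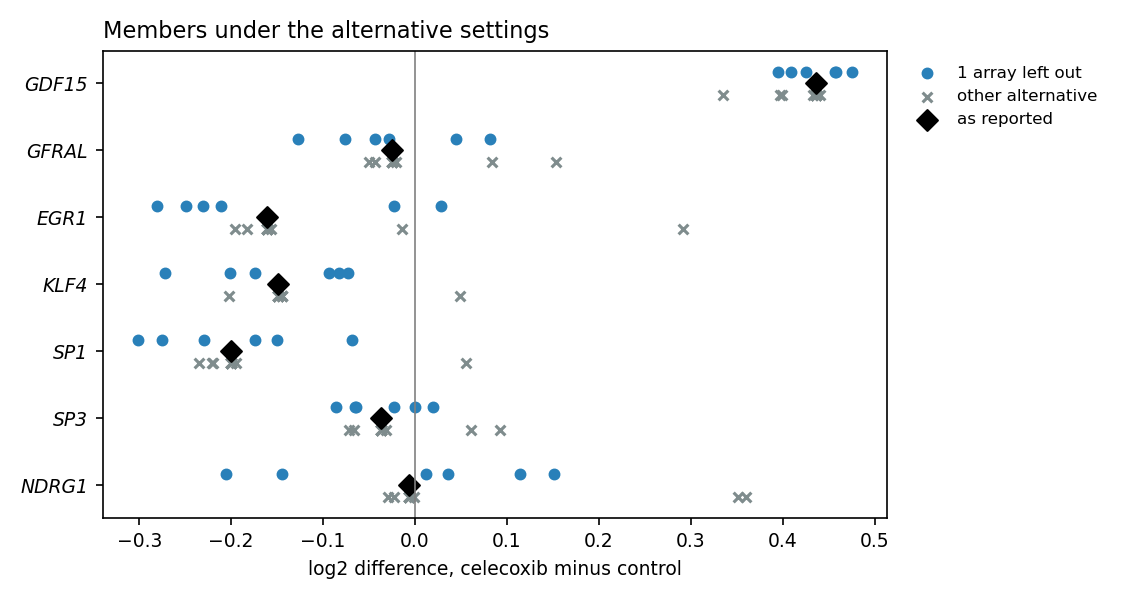
Log2 difference between celecoxib and control for each of the 7 genes as reported (diamonds), with 1 array left out (circles) and under the other alternatives (crosses). GDF15 stays between 0.34 and 0.47, and the other 6 genes cross 0 in at least 1 setting.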

How the data were processed

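Total RNA of 3 celecoxib and 3 control cultures of AGS cells was measured on HuGene-1_0-st arrays. The deposited table holds log2 values for 33297 transcript clusters. The authors made them with RMA in Affymetrix Expression Console 1.1, per the submitters' processing notes. Background was thus corrected and arrays were quantile normalized before deposit, which lessens shifts shared by all genes. Small differences between array medians remained, and all 3 celecoxib medians lay below all 3 control medians. No source used here states the probe-level settings.

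Of the clusters, 19460 had 1 gene symbol in the platform annotation. The cluster with the highest mean stood for a gene, which left 18417 genes. Groups were compared in limma 3.58.1 (lmFit, then eBayes; R 4.3.3), two-sided, with Benjamini-Hochberg adjustment over all genes and a threshold of 0.05. Differences are celecoxib minus control. The fit was tested on simulated data. Named genes are the members, the up to 3 genes with the smallest p of each list, and the nearest patterns to GDF15 and NDRG1. That search left out symbols starting with LOC, LINC, SNOR, MIR, KIAA, FAM or TMEM, olfactory receptors and open reading frame names. Members and lists were chosen with earlier results of these data known. Start regions came from RefSeq tables of GRCh38.p14, which matched 5 of the 7 members. Alternatives were 12 other settings and leaving out each of the 6 arrays. Figures were drawn with matplotlib 3.10.9.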

Additional observations from a re-analysis of the deposited data

How the results depend on the processing

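Of 18 alternatives, GDF15 kept its direction in 18 and passed the threshold in 4: among genes above the median of all clusters, with an intensity trend and with that trend and a robust fit (0.44 in each), and with array weights (0.43). Leaving out 1 array gave 0.39 to 0.47, none past the threshold. No other member passed the threshold in any alternative. With small RNA level as a covariate the differences of GFRAL, EGR1, KLF4, SP1, SP3 and NDRG1 turned positive (0.0832, 0.29, 0.0489, 0.0558, 0.0925 and 0.35), and with array weights those of GFRAL, SP3 and NDRG1 did (0.15, 0.0611 and 0.36). The small RNA level did not overlap between the groups, so that fit cannot fully separate it from treatment. The array weights were 5.85 for control 1 and 0.37 to 1.21 for the other arrays. Control 1 had the lowest control value of GFRAL, SP3 and NDRG1. The cause of the changes with the covariate was not tested. Leaving out 1 array turned the sign in some cases for GFRAL (-0.13 to 0.0814), EGR1 (-0.28 to 0.0279), SP3 (-0.0863 to 0.0197) and NDRG1 (-0.21 to 0.15).

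The count of genes past the threshold, 26 as reported, was 76 above the median of all clusters, 59 without the dimmest 20%, 44 after quantile normalization once more, 42 after cyclic loess, 69 with an intensity trend (69 also with a robust fit), 177 with array weights and 1 when small RNA level was the covariate. By limma it was 0 over all 33297 clusters (2551 of them at an unadjusted p under 0.05). Without 1 array it was 0 to 5, with 1293 to 2353 genes at an unadjusted p under 0.05. With the replicate number as a block the count was 0 (2448 at an unadjusted p under 0.05) and GDF15 stood at 0.44 (adjusted p = 0.179). The numbers were not taken as a pairing, since the labels give only a replicate number. Deviations from the group means correlated at -0.02, 0.49 and 0.01 for same-numbered arrays, and at -0.49 to 0.41 for differently numbered ones. With so few arrays per group these values cannot decide whether the arrays are paired. Of 162 list medians recomputed, 8 moved by more than the spread between arrays. The number of arrays limits the precision.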

Other observations

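GDF15 belongs to a family of dimeric ligands, of which 20 other members (GDF, BMP, activin and transforming growth factor beta genes) were measured. With celecoxib 8 had higher and 12 lower means, 0 passed the adjusted limma threshold, 0 had an unadjusted p under 0.05 and the median log2 difference was -0.03. Their differences ran from -0.39 for TGFB1 to 0.14 for GDF9, an oocyte factor, all below the 0.44 of GDF15. The value of TGFB1 rested on celecoxib 1: it was -0.0710 without that array and 0.33 once small RNA level was a covariate. Without celecoxib 1 the 20 genes split into 10 higher and 10 lower, and with array weights into 12 and 8 (median 0.0063). TGFB2 had the smallest p (-0.14 ± 0.08, SE, n = 3 per group, limma adjusted p = 0.506), with no overlap between groups.

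Of 9 other genes known to be induced by such drugs, 2 had higher and 7 lower means, where 52.1% of all genes were lower, and 0 passed. Without celecoxib 1 the split was 3 and 6, and with the small RNA covariate 4 and 5. Besides DDIT3, THBS1, the matrix protein thrombospondin-1, had 7.80, 8.16 and 8.20 with celecoxib and 8.63, 8.67 and 8.42 in controls (log2 difference -0.52 ± 0.12, SE, limma adjusted p = 0.216). It was -0.39 without celecoxib 1 and -0.24 with the covariate. SAT1, the enzyme that acetylates spermidine and spermine, stood at -0.17 ± 0.08, and its groups did not overlap. With the covariate it was at -0.28.

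The 5 genes nearest to NDRG1 in pattern lay further from it than those nearest to GDF15, at 0.14 to 0.16 on the same measure. They were KCNQ1, a potassium channel, the hair keratin associated gene KRTAP5-4, the transcription factor NFIL3, SLC16A8, a monocarboxylate transporter, and SMIM10L2A. Their log2 differences ran from -0.19 for KCNQ1 to 0.06 for SMIM10L2A.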
